A study of Mus musculus with 15 samples.

Results

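The 10 genes Egr1, Egr2, Egr3, Fos, Fosb, Fosl1, Jun, Junb, Jund and Ier2 encode immediate-early transcription factors of the EGR, AP-1 and IER families. They were picked by gene name from the 20207 RefSeq genes of each table. All 10 were present in the 15 tables, and 8 had at least 1 count in every library, while Egr3 and Fosb did not. All cells were NIH3T3, an established line of mouse embryonic fibroblasts, carrying DD-sfGFP, a superfolder GFP fused to a destabilizing domain derived from FKBP. The transgene had been inserted with a piggyBac transposon, and cells with high fluorescence had been sorted, in controls and treated samples alike. In the 5 control samples (cont) the ligand Shield-1 (S1), which keeps the domain folded, was not withdrawn. The sample titles give no collection time for these controls. The other samples were collected 45 min (3 samples), 135 min (3 samples) and 405 min (4 samples) after S1 removal, which was done by adding purified FKBP(F36V) protein to the serum-containing medium. The comparisons ask which of these mRNAs differ from control once the unfolded domain appears, and at which time. Cells that received the FKBP(F36V) protein without the DD fusion were not analysed here, so the unfolded domain and the addition to the medium cannot be told apart.

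Immediate-early genes are transcribed within minutes of a growth factor, serum or stress signal without the need for new protein, and their mRNAs are short-lived. ERK signalling acts on serum response factor and its ETS partners at CArG boxes, and CREB and ATF proteins act at cyclic AMP response elements. FOS and JUN proteins pair through leucine zippers to form AP-1, EGR proteins are zinc finger factors, and NAB proteins bind EGR proteins and restrain them. In fibroblasts the group is known for its burst after serum is added to resting cells.

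RefSeq promoter windows (GRCm38.p6, 250 bases before to 50 bases after a start, 300 bases in all) were found for 6 of the 10 genes, with 10 windows among them. Egr1, Egr3, Fosl1 and Ier2 had no window. The 120 bases before the start are shown for 3 genes of the EGR and AP-1 families. Their windows hold a CArG box or one of the short sequences TGACGT and TGACATCA. Capitals mark the CArG box of Egr2, the TGACGT of Fos and the TGACATCA of Jun.

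Egr2, chr10:67537749-67537868, plus strand: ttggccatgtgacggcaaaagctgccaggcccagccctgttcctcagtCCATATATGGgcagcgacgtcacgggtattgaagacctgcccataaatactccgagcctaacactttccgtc

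Fos, chr12:85473770-85473889, plus strand: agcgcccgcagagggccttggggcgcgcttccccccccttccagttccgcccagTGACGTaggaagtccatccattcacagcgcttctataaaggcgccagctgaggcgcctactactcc

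Jun, chr4:95052223-95052342, minus strand: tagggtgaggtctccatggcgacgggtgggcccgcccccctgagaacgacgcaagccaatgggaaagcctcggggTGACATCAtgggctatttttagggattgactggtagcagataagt

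A CArG box was present in 4 of the 5 Egr2 windows, and 3 of them, which overlap each other, hold the same CCATATATGG. In the window shown it lies 72 to 63 bases before the start. None of the other genes with a window had a CArG box in it, and 1.63% of the 32851 windows of all genes had one. Egr1, Egr3, Fosl1 and Ier2, without a window, and sequence beyond the windows were not searched. TGACGT, read on both strands, was present in the windows of Fos and Egr2 and in 7.51% of all windows. TGACATCA, read on both strands, was present for Jun and in 3.62% of all windows. TGACGTCA (1.79% of all windows, a sequence that contains TGACGT) and TGANTCA (7.81%) were in none of the 10 windows of these genes. These matches describe the letters only, and no binding was measured.

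Total counts per library ran from 6652539 (control replicate 3) to 30258404 (45 min replicate 1). The 8 fibroblast markers examined were expressed in every library, with Vim between 3590 and 6170 CPM (counts scaled to a common library total). The 12 markers of other cell types summed to 2.1 to 10.5 CPM, and Adipoq had no count in any library. The libraries also split into 2 sets by how strongly CPM depended on the GC content of a gene's exons, a split that the labels do not give. Set 2 held control replicate 2, 45 min replicate 3 and 405 min replicates 1, 2 and 4, with slopes of −0.387 to 0.031 log2 CPM per 10 percentage points of GC. Set 1 held the other 10 libraries, all 3 of 135 min among them, with slopes of −1.425 to −0.675. Control replicate 3 stood farthest apart on the first principal component, at −109.6 against −42.5 to 69.2 for the others. Each result below is therefore also given with the library set as a term in the model wherever that term changes a call or a direction. The genes are rich in GC: Junb, Jund, Egr3 and Ier2 lay at percentiles 98.2 to 99.3 of exonic GC content among tested genes, Fosl1 at percentile 92.6 and Egr1 at percentile 73.7.

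Levels were compared between genes per length, as RPKM (reads scaled to gene length and library total, as deposited). In control, Jun, the AP-1 subunit c-Jun, had the highest level with a mean RPKM of 30.9, ranging from 10.7 to 48.7 over the 5 libraries. Egr1, a zinc finger factor, followed with 8.8 (1.55 to 21). Ier2, a small nuclear protein, came next with 4.6 (2.08 to 8.11). Then came Jund with 3.13, Fosl1 with 2.78 and Junb with 2.72, and their ranges overlapped each other and those of Egr1 and Ier2. Egr2 (0.501), Fos (0.266), Fosb (0.0879) and Egr3 (0.0581) were all below 1 RPKM on average. Fos, the classical partner of Jun in AP-1, was thus measured at 0.00861 of the Jun level per length. The control ranges of each pair of neighbours in this order overlapped.

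**Figure D1:**
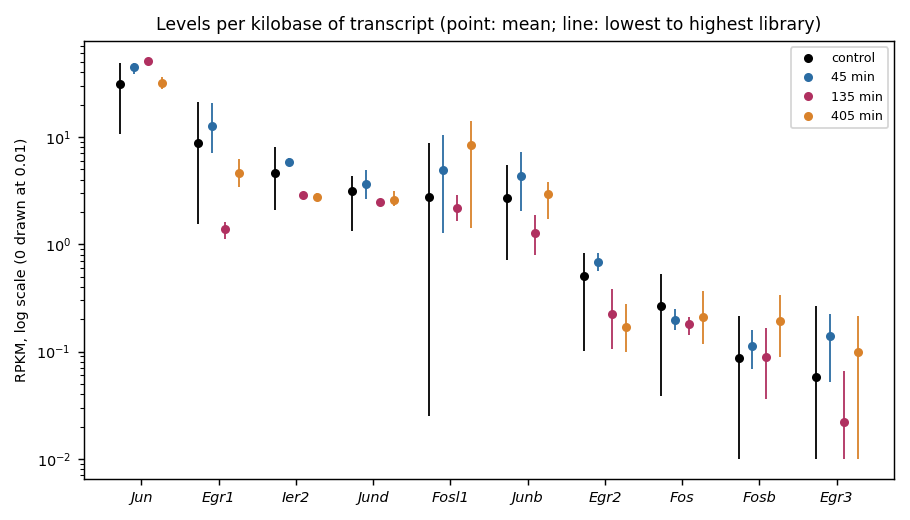
Each gene's RPKM on a log axis, with the mean as a point and the lowest to highest library as a line, for control (5), 45 min (3), 135 min (3) and 405 min (4). Jun has the highest mean in all 4 groups, and Egr1 moves from a control mean of 8.8 to 1.4 at 135 min and 4.58 at 405 min.

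Egr1 (chr18:35020861-35024610, mm9) showed the largest change of the tested members. In the control libraries its level was 55.0, 127.4, 16.7, 19.7 and 53.7 CPM. At 45 min the libraries had 56.3, 43.4 and 129.7 CPM. At 135 min they had 8.49, 9.10 and 6.41 CPM, so that all 3 lay under the lowest control library. At 405 min the values were 38.9, 21.5, 21.0 and 41.3 CPM, inside the control range and above every library of 135 min. Egr1 fell at 135 min by 2.70 on the log2 scale (SE 0.57), a fold of 6.51, with an adjusted p of 0.031 (edgeR quasi-likelihood test, Benjamini-Hochberg over 10276 genes, as in all tests below). Against the 45-min libraries the log2 fold change at 135 min was −3.15 (SE 0.62, adjusted p = 0.0378, edgeR). At 405 min it was −0.90 (SE 0.47) against control, with an adjusted p of 0.159 in edgeR, and 1.80 (SE 0.56) against 135 min, with an adjusted p of 0.0735.

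The 2 libraries with the highest Egr1 level, control replicate 2 and 45 min replicate 3, both belong to set 2. The other libraries of set 2, all of 405 min, had 38.9, 21.5 and 41.3 CPM. These lay inside the range of the set 1 controls, 16.7 to 55 CPM. With the set as a term, the log2 fold changes of Egr1 were −2.30 at 135 min (SE 0.38, adjusted p = 0.00203, edgeR) and −1.40 at 405 min (SE 0.34, adjusted p = 0.0127, edgeR). Within set 1 alone the change at 135 min was −2.19 (adjusted p = 0.0152, edgeR). Within set 2 the change at 405 min was −1.93, a value that rests on 1 control library, the control with the highest Egr1 level. The call at 135 min without that term was lost when control replicate 1 (adjusted p = 0.0606), control replicate 5 (0.058) or any 1 of the 135-min libraries (0.14 to 0.182, edgeR) was left out, with log2 fold changes of −2.81 to −2.56. It was also lost when the fit held only the 2 groups compared (adjusted p = 0.137, edgeR). The call between 45 and 135 min was lost in 11 of the 15 fits that leave out 1 library (adjusted p of 0.0507 to 0.271), and held only without control replicate 2, 3 or 4 or 405 min replicate 3.

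Egr2 (chr10:67000617-67004936), the EGR member whose promoter windows could be searched, was expressed at a few CPM. The controls had 4.08, 4.80, 1.05, 1.93 and 3.24 CPM and the 45-min libraries 3.38 to 4.395 CPM. The levels were 0.59, 2.09 and 1.04 CPM at 135 min and 0.74, 1.57, 0.97 and 0.90 CPM at 405 min. These are few counts, 10 to 42 per library at 135 min and 10 to 32 at 405 min. The 405-min libraries overlapped the controls only through 1 library of 405 min, at 1.57 CPM, which lay above the lowest control. At 405 min Egr2 fell by 1.61 on the log2 scale (SE 0.45, adjusted p = 0.0224, edgeR), a fold of 3.06. At 135 min the log2 fold change was −1.25 (SE 0.48, adjusted p = 0.292, edgeR). The call at 405 min was lost without control replicate 1 (adjusted p = 0.0513, edgeR), 405 min replicate 1 (0.0774) or 405 min replicate 4 (0.075), in the fit of the 2 groups alone (0.0568), without a filter on low counts (0.0563), with the replicate number as a block (0.0677) and within set 1, which holds 1 library of 405 min (−1.51, adjusted p = 0.439).

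Egr3 (chr14:70477252-70479964) was close to the detection limit. It had no count in 3 of the 5 controls, in 2 libraries of 135 min and in 1 library of 405 min. Its highest values were 0.747 CPM (14 counts) in control replicate 2, 0.657 CPM in 405 min replicate 4 and 0.638 CPM in 45 min replicate 3, all of library set 2. No difference from control was detectable at this depth: on the scale log2(CPM + 0.5) the differences were 0.50, −0.16 and 0.32 at the 3 times, with two-sided exact permutation p-values of 0.321, 0.911 and 0.397. The smallest p such a test can give was 0.0179 at 45 and 135 min and 0.00794 at 405 min.

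Ier2 (chr8:87185230-87186751), an immediate-early gene with a single exon in the GENCODE annotation, was lower at the later 2 times. The control values were 14.8, 24.4, 11.1, 14.0 and 10.1 CPM and those at 45 min 17.2, 17.1 and 17.5 CPM. They were 7.96, 8.30 and 8.29 CPM at 135 min and 9.67, 7.42, 8.92 and 9.92 CPM at 405 min. All 7 libraries of the later 2 times lay under the lowest control. Ier2 fell at 405 min by 0.83 on the log2 scale (SE 0.22, adjusted p = 0.0169, edgeR), a fold of 1.78. At 135 min the log2 fold change was also −0.83 (SE 0.24), with an adjusted p of 0.126, and of 0.0497 with the library set as a term (log2 fold change −0.76). The call at 405 min was lost without 405 min replicate 2 (adjusted p = 0.0596, edgeR) in the fit of the 2 groups alone (0.076) and within set 1 (−0.59, adjusted p = 0.415).

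**Figure D2:**
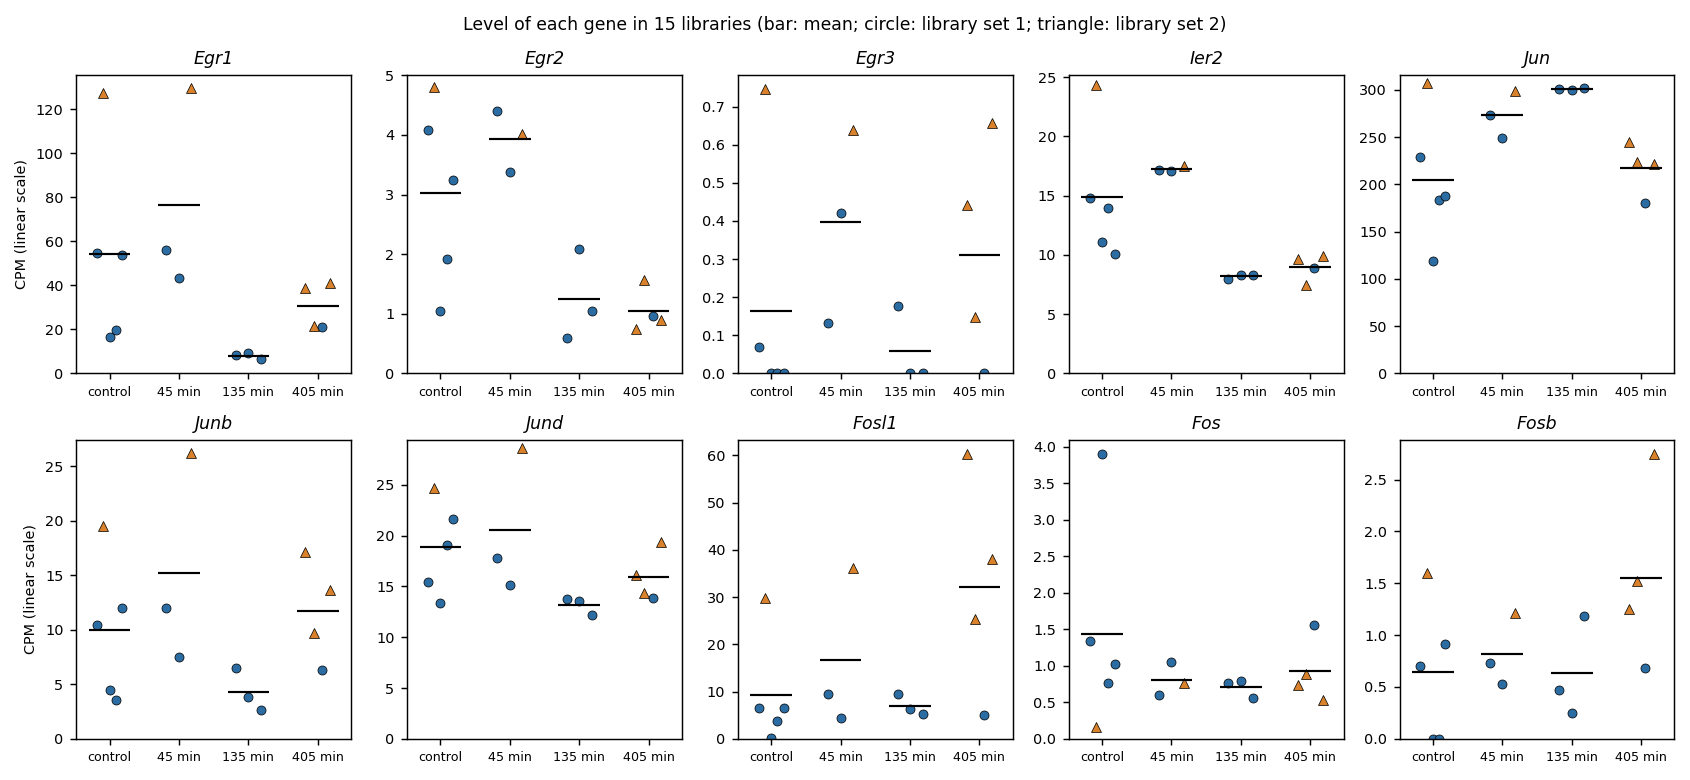
CPM on linear axes for each gene in the 15 libraries, by group, with the mean as a bar, circles for library set 1 and triangles for library set 2. The 135-min libraries of Egr1 (6.41 to 9.10 CPM) and Ier2 (7.96 to 8.30 CPM) lie under all controls, and for Fosl1 the triangles lie above all circles.

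Jun (chr4:94715727-94718913), whose promoter sequence is given above, had its highest group mean at 135 min. The controls had 228.7, 306.7, 119.0, 182.9 and 187.9 CPM and the 45-min libraries 273.8, 249.4 and 298.2 CPM. At 135 min the 3 libraries lay within 2 CPM of each other, at 300.4, 299.3 and 301.4 CPM. The 405-min values were 244.2, 223.3, 180.5 and 221.6 CPM, under every library of 45 and 135 min. Control replicate 2, of set 2, was above all libraries of 135 min, so the groups overlapped. The log2 fold change at 135 min was 0.58 (SE 0.18, adjusted p = 0.167, edgeR). It became a call with the library set as a term (0.67, SE 0.15, adjusted p = 0.0119, edgeR), within set 1 (0.73, adjusted p = 0.0289) and without control replicate 2 (0.73, adjusted p = 0.0239). At 405 min it was −0.01 (SE 0.17) against control and −0.60 (SE 0.19, adjusted p = 0.0772, edgeR) against 135 min, and the latter was −0.86 (adjusted p = 0.0169) with the set as a term. With an offset for GC content the value at 405 min against control became a call, at −0.58 (SE 0.15, adjusted p = 0.014, edgeR), and −0.61 (adjusted p = 0.0499) with the replicate block as well.

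Junb (chr8:87500811-87502617), is an AP-1 subunit that can restrain c-Jun. Its controls were at 10.4, 19.6, 4.51, 3.53 and 12 CPM and its 45-min libraries at 12, 7.49 and 26.3 CPM. At 135 min they were at 6.49, 3.83 and 2.68 CPM, overlapping the controls but under all libraries of 45 min, and at 405 min at 17.2, 9.68, 6.30 and 13.6 CPM. The log2 fold changes were 0.55 (SE 0.50), −1.17 (SE 0.53) and 0.13 (SE 0.46) at 45, 135 and 405 min, and none was called (adjusted p of 0.701, 0.395 and 0.839, edgeR). With the library set as a term the value at 405 min changed sign, to −0.49 (adjusted p = 0.435). Between 45 and 135 min the log2 fold change was −1.72 (SE 0.58, adjusted p = 0.472, edgeR), and between 135 and 405 min it was 1.30 (SE 0.55, adjusted p = 0.15).

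Jund (chr8:73221638-73224515), the AP-1 subunit usually described as constitutive, had the smallest spread between controls of the tested members, with an SD of 0.26 on the log2 CPM scale. Its control range was 13.4 to 24.7 CPM, with a median of 19.1. It ranged from 15.2 to 28.6 CPM at 45 min, 12.2 to 13.8 CPM at 135 min and 13.9 to 19.4 CPM at 405 min. The log2 fold changes were 0.05 (SE 0.21), −0.49 (SE 0.22) and −0.35 (SE 0.20), none of them called by edgeR (adjusted p of 0.913, 0.383 and 0.189). At 405 min it was called with an offset for GC content (−1.08, SE 0.27, adjusted p = 0.0103, edgeR), with the replicate block as well (−0.99, adjusted p = 0.0467), and with the library set as a term without control replicate 3 (−0.61, adjusted p = 0.0166).

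Fosl1 (chr19:5447698-5455938), which encodes the FOS-related protein Fra-1, had no overlap in CPM between the library sets. The sets were drawn from how these same libraries depend on GC content, and Fosl1 is rich in GC. All libraries of 135 min are in set 1 and most of 405 min in set 2. The parts of set and time therefore cannot be told apart. The 5 libraries of set 2 had 25.3 to 60.3 CPM and the 10 libraries of set 1 had 0.15 to 9.48 CPM. The control values were 6.62, 29.7, 0.15, 3.73 and 6.49 CPM, and the 0.15 CPM of control replicate 3 was a single count. The 45-min libraries had 9.48, 4.33 and 36.1 CPM, those of 135 min 9.38, 6.26 and 5.26 CPM and those of 405 min 60.3, 25.3, 4.95 and 38.0 CPM. The log2 fold change at 405 min was 1.70 (SE 0.83, adjusted p = 0.134, edgeR), and it was 0.39 (adjusted p = 0.664) with the set as a term. Without control replicate 2 it became a call (2.72, adjusted p = 0.0102, edgeR). With an offset for GC content and all libraries, the value at 405 min was 1.18 (SE 0.57, adjusted p = 0.125, edgeR). Against 135 min the change at 405 min was 2.06 without the set and −0.25 with it, so its direction depends on that term. In the NCBIM37 annotation Ccdc85b overlaps Fosl1 on the opposite strand, and whether the counting used strand is not given in the sources used here.

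Fos (chr12:86814851-86818219), the founding immediate-early gene, was near 1 CPM throughout. The control libraries had 1.34, 0.16, 3.91, 0.77 and 1.03 CPM, which are 3 to 26 counts. It ranged from 0.59 to 1.05 CPM at 45 min, 0.56 to 0.80 CPM at 135 min and 0.54 to 1.55 CPM at 405 min, within the control range at every time. Its log2 fold changes were −0.90 (SE 0.75), −0.97 (SE 0.74) and −0.71 (SE 0.68), none of them called (adjusted p of 0.698, 0.659 and 0.429, edgeR). The value at 405 min was 0.04 without control replicate 3, the library with 3.91 CPM, and 0.19 with the library set as a term. The interval of 2 SE around the value at 45 min ran from −2.39 to 0.60 on the log2 scale.

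Fosb (chr7:19888045-19895394), the third FOS gene examined, had no count in control replicates 3 and 4. Its other controls were at 0.70, 1.60 and 0.92 CPM. It ranged from 0.53 to 1.21 CPM at 45 min, 0.25 to 1.18 CPM at 135 min and 0.68 to 2.75 CPM at 405 min, overlapping the controls each time. On the log2(CPM + 0.5) scale the difference at 405 min was 0.97 (exact permutation p = 0.159, two-sided), and 0.777 after adjustment over the 6 tests of Egr3 and Fosb.

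**Figure D3:**
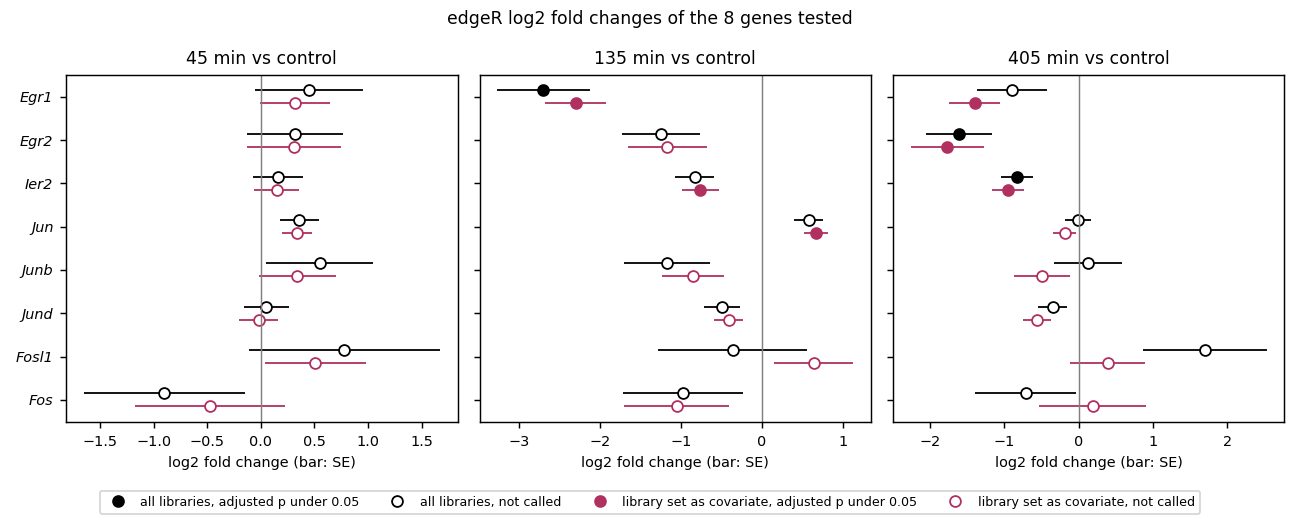
Log2 fold changes against control with SE bars for the 8 tested genes at each time, in black from the fit without and in dark pink from the fit with the library set as a term; filled points have an adjusted p under 0.05 in edgeR. At 45 min no point is filled, Egr1 is filled in both fits at 135 min (−2.70 and −2.30), and Egr2 and Ier2 in both at 405 min.

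Across the group, no member was called at 45 min, when 0% of the 10276 tested genes were called in either direction by edgeR. At an unadjusted p under 0.05 edgeR gave 129 higher (1.26%) and 236 lower genes (2.3%) at 45 min, 0 of the members among them. DESeq2 called 2 higher (0.0195%) and 4 lower genes (0.0389%), again 0 members, and edgeR with the library set as a term called 3 (0.0292%) and 1 (0.00973%), with 0 members. The lowest unadjusted p among the members in edgeR was 0.0644, for Jun, with a log2 fold change of 0.36 (SE 0.18).

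At 135 min 1 of the 8 tested members was lower, beside 0.895% of all tested genes, and 0 were higher, beside 0.564% (edgeR). At an unadjusted p under 0.05 edgeR gave 5 members lower (Egr1, Egr2, Ier2, Junb, Jund), beside 7.35% of genes, and 1 higher (Jun), beside 4.58%. DESeq2 called 2 lower (Egr1, Ier2), beside 2.62%, and 1 higher (Jun), beside 1.57%. With the library set as a term 2 members were lower (Egr1, Ier2) and 1 was higher (Jun), beside 4.88% and 3.06% of genes. Between 45 and 135 min 1 of 8 was lower in edgeR, beside 0.243%, and 0 were higher, beside 0.185%. At an unadjusted p under 0.05 the same 5 members were lower there, beside 4.15% of genes, and 0 higher, beside 2.37%. DESeq2 called 2 lower (Egr1, Ier2), beside 0.623%, and 0 higher, beside 0.555%, and with the set term 1 was lower and 0 higher, beside 0.584% and 0.438%.

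At 405 min 2 of 8 members were lower in edgeR, beside 13.4% of all tested genes, and 0 were higher, beside 9.99%, and with so high a background 2 genes of 8 are not a result about the group. The members higher were also 0 at an unadjusted p under 0.05 (18.7% of genes) and in DESeq2 (14%). With the set term 3 were lower (Egr1, Egr2, Ier2) and 0 higher, beside 6.87% and 6.17%. Between 135 and 405 min edgeR called 0 of 8, beside 2.24% higher and 2.82% lower. At an unadjusted p under 0.05 Egr1 and Junb were higher and Jun lower there, beside 14.9% and 12.7% of genes. DESeq2 called Egr1 higher (adjusted p = 0.011) and Jun lower (0.0225), beside 7.78% and 6.54%, and edgeR with the set term called Jun alone, lower, beside 1.66% higher and 2.01% lower genes. The comparisons of 135 and 405 min use the same control libraries and are not independent of each other.

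The median log2 fold change of the 8 tested members was 0.34 at 45 min, −0.90 at 135 min and −0.53 at 405 min, beside 0.02, −0.06 and −0.00 for all tested genes. The groups did not overlap in CPM at 135 min for 2 of the 8 members, Egr1 and Ier2, both lower, beside 5.46% of tested genes lower and 3.59% higher. At 405 min this held for Ier2 alone, lower, beside 5.74% lower and 7.58% higher, and at 45 min for 0 members, beside 0.438% and 0.525%. Against 45 min at 135 min 5 of the 8 were under every 45-min library and 1 was above, beside 15.6% and 6.39% of tested genes. From 135 to 405 min 2 were above and 1 was under, beside 24.9% and 13%. An F-test of the 3 times together called Egr1 (adjusted p = 0.0162), Ier2 (0.0177) and Egr2 (0.0367, edgeR), beside 9.69% of all tested genes. Nothing in the files separates a lower level of mRNA per cell from fewer cells with the mRNA.

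The members differed in how much the control libraries varied, and these libraries come from both library sets. The SD of log2 CPM over the 5 controls was 2.41 for Fosl1, 1.48 for Fos, 1.10 for Egr1 and 0.92 for Junb, beside a median of 0.49 over all tested genes. It was 0.75 for Egr2, 0.42 for Ier2, 0.40 for Jun and 0.26 for Jund. The highest control library of Egr1 exceeded the lowest by 7.63 times, and for Jun by 2.58 times. At 135 min the SD was 0.26 for Egr1 (percentile 80 of tested genes) and 0.01 for Jun, beside a median of 0.13 over all tested genes, and all 3 of these libraries come from library set 1. For Egr2 it was 0.84 at about 1 CPM.

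**Figure D4:**
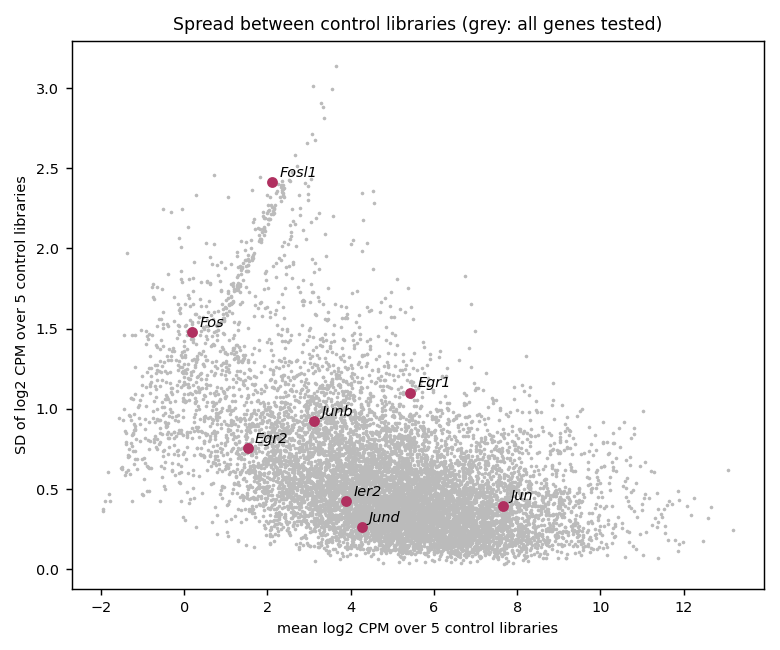
SD of log2 CPM over the 5 control libraries against their mean log2 CPM, with all 10276 tested genes in grey and the 8 tested members in dark pink. Fosl1 (2.41), Fos (1.48) and Egr1 (1.10) lie high, Jund (0.26) low.

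As a description over 15 libraries that share depth and library set, log2 CPM of Egr1 and Junb had a Pearson correlation of 0.87 (0.84 in the 10 libraries of set 1). Egr1 and Egr2 had 0.67 (0.81 in set 1), Egr1 and Ier2 0.72 (0.75), and Egr1 and Jun −0.07 (−0.35). Among 9013 genes with a mean of at least 5 CPM, the gene most like Egr1 over the 15 libraries was Errfi1, an inhibitor of EGF receptor signalling, at 0.973, followed by Nedd9 (0.939) and Osr1 (0.932). Within set 1 the order was Fosl2 (0.976), Errfi1 (0.956) and Fam176b (0.944). The nearest to Junb were Tenc1, Nedd9 and Fosl2 (0.918, 0.903 and 0.902), and in set 1 Cdc42ep2, Tenc1 and Egr1 (0.895, 0.883 and 0.843). For Fosl1 the nearest were Rprl3, 2310037I24Rik and Rab1b (0.989, 0.988 and 0.988), and in set 1 Smarca4, Fxyd5 and Rrp12. For Jund they were Sqle, Tgfbr3 and Mn1 (0.902, 0.881 and 0.875) and in set 1 Det1, Fmn1 and Tbx18. For Fos, a gene of few counts, they were D230037D09Rik, Tatdn1 and Gnpda2 and in set 1 Tatdn1, Enpp3 and Zbtb6.

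Both NAB co-repressors of the EGR proteins were called lower at 405 min, beside 13.4% of all tested genes. At 135 min Nab2 alone was called lower, beside 0.895%. Nab2, the co-repressor that EGR proteins themselves are known to induce, had 69.8, 118.0, 44.2, 64.7 and 92.8 CPM in the controls and 85.2, 61.7 and 116 CPM at 45 min. It had 25.1, 22.8 and 15.9 CPM at 135 min and 37.9, 40.3, 27.6 and 43.7 CPM at 405 min, so that no library of the later 2 times reached the lowest control. Nab2 fell by 1.84 on the log2 scale at 135 min (SE 0.27, adjusted p = 0.0021, edgeR) and by 1.16 at 405 min (SE 0.24, adjusted p = 0.00472). Nab1, the related co-repressor, fell by 0.72 at 405 min (SE 0.18, adjusted p = 0.0138, edgeR), a call lost without 405 min replicate 1 or 4 (adjusted p up to 0.0546). The calls of Nab2 held in all 15 fits that leave out 1 library. The third of the 3 tested genes on this list of 5, Sp1, was not called, with log2 fold changes of 0.16 at 135 min and 0.10 at 405 min.

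Of 14 other bZIP genes that can pair within AP-1, 8 were tested. At 135 min 1 was higher and 0 lower, beside 0.564% and 0.895% of all tested genes. At 405 min 1 was higher and 2 lower, beside 9.99% and 13.4%. With the library set as a term each time had 1 higher and 1 lower. The shares of all tested genes were then 3.06% and 4.88% at 135 min, and 6.17% and 6.87% at 405 min. Mafg, a small MAF protein, was higher at 135 min, with a log2 fold change of 0.66 (SE 0.12, adjusted p = 0.0153, edgeR), and at 405 min, with 0.91 (SE 0.11, adjusted p = 0.000172). The call at 135 min was lost without any 1 of the 135-min libraries (adjusted p up to 0.13). Its CPM rose from 41.5 to 50.9 in the controls to 67.5 to 78.0 at 135 min and 86.0 to 109.3 at 405 min, without overlap. Atf4, the factor of the integrated stress response, fell by 0.45 at 405 min (SE 0.10, adjusted p = 0.00907, edgeR), and Jdp2, a JUN-binding repressor, fell by 0.46 (SE 0.13, adjusted p = 0.0259), a call that the set term removes (adjusted p = 0.0517). Atf3, a stress-induced bZIP gene singled out after its values were seen, was not tested because a control had no count. It ranged from 0 to 1.55 CPM in the controls and from 1.59 to 2.95 CPM at 45 min, 1.19 to 3 CPM at 135 min and 1.25 to 2.16 CPM at 405 min. Batf2, also untested, went the other way, from 0.159 to 7.74 CPM in the controls to 0 to 0.245 CPM at 405 min. The other untested genes on this list are not described.

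Growth factor receptors and MAP kinases act upstream of these genes. Of 25 tested genes of the growth factor and MAP kinase pathway, 1 was lower at 135 min, beside 0.895% of all tested genes. It was Pdgfrb, the PDGF receptor beta, with a log2 fold change of −0.92 (SE 0.21, adjusted p = 0.0418, edgeR). With the library set as a term 3 were lower at 135 min, beside 4.88%. At 405 min 2 were higher and 5 lower, beside 9.99% and 13.4% of all tested genes, and with the set term 1 was higher and 5 lower, beside 6.17% and 6.87%. The higher ones were Mapk9, the JNK2 kinase that phosphorylates c-Jun (0.98, SE 0.15, adjusted p = 0.000692, edgeR), and Lpar1, a lysophosphatidic acid receptor (0.48, SE 0.16, adjusted p = 0.0469). The lower ones included Egfr (−1.09, SE 0.19, adjusted p = 0.00192, edgeR), Pdgfrb (−0.70, SE 0.19, adjusted p = 0.0204) and Pdgfra (−0.51, SE 0.12, adjusted p = 0.00999). With the library set as a term the call of Lpar1 was lost (adjusted p = 0.219, edgeR). The calls of Pdgfrb at 135 min and of Lpar1 held in 5 of the 15 fits that leave out 1 library, and that of Pdgfrb at 405 min was lost without 405 min replicate 2 (adjusted p = 0.0673). The median over the 25 was 0.02 at 135 min and 0.16 at 405 min.

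Among 11 tested factors that act on immediate-early promoters, such as Srf, the ELK genes and Creb1, none was called at 135 min. At 405 min Elk3, an ETS partner of serum response factor, was lower (−0.56, SE 0.14, adjusted p = 0.0134, edgeR), beside 13.4% of all tested genes. Srf itself, singled out after its values were seen, had log2 fold changes of −0.09 (SE 0.40) at 135 min and −0.09 (SE 0.37) at 405 min, and with the library set as a term the latter was −0.76 (adjusted p = 0.0411, edgeR). The median over the 11 genes was −0.09 at 135 min and 0.20 at 405 min.

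Of 37 other immediate-early genes, 31 were tested. At 135 min 5 were lower and 1 higher, beside 0.895% and 0.564% of all tested genes, and their median log2 fold change was −0.59 beside −0.06 for all tested genes. With the library set as a term 10 were lower and 3 higher, beside 4.88% and 3.06%, with a median of −0.50. Of the called genes the lowest was Ctgf, a matricellular protein gene that responds to serum response factor and YAP, at −2.02 (SE 0.24, adjusted p = 0.00036, edgeR). Its control libraries had 178.3, 278.7, 137.4, 142.5 and 125.4 CPM, and its 135-min libraries 46.3, 42.9 and 35.6 CPM, well apart. Nr4a1, an orphan nuclear receptor, was at −1.60 (SE 0.29, adjusted p = 0.0113, edgeR), Nfil3, a bZIP repressor, at −1.31 (SE 0.28, adjusted p = 0.0296), and Errfi1 at −1.28 (SE 0.27, adjusted p = 0.0271). In contrast, Ier3, an immediate-early gene linked to cell survival, was higher at 135 min by 2.09 (SE 0.44, adjusted p = 0.0311, edgeR). Its level was 0.60 to 11.9 CPM in the controls, 8.02 to 12.6 CPM at 45 min, 19.6 to 29.2 CPM at 135 min and 27.8 to 41.0 CPM at 405 min. The calls of Ier3, Nfil3, Errfi1 and Nr4a1 at 135 min held in 7, 10, 10 and 12 of the 15 fits that leave out 1 library, and each was lost without any 1 of the 135-min libraries. That of Ctgf held in all 15.

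At 405 min 9 of the 31 were lower, beside 13.4% of all tested genes, and the median was −0.16. The 3 higher, beside 9.99%, were a share near the background. The counts were also 9 and 3 with the set term, beside 6.87% and 6.17%. Nr4a1 was at −1.56 (SE 0.26, adjusted p = 0.00133, edgeR), Zfp36l2, an RNA-binding protein that destabilizes AU-rich mRNAs, at −1.36 (SE 0.23, adjusted p = 0.00145), Nr4a2 at −1.24 (SE 0.33, adjusted p = 0.0194) and Ctgf at −0.99 (SE 0.20, adjusted p = 0.00488). The higher ones were Ier3 (2.54, SE 0.43, adjusted p = 0.00141, edgeR), Plk3, a stress-responsive kinase (1.57, SE 0.39, adjusted p = 0.0134), and Ptgs2, which encodes cyclooxygenase 2 (0.74, SE 0.19, adjusted p = 0.017). Nr4a2 was lost without 405 min replicate 1, 2 or 4 (adjusted p up to 0.0676) and Ptgs2 without 405 min replicate 4 (0.0561).

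**Figure D5:**
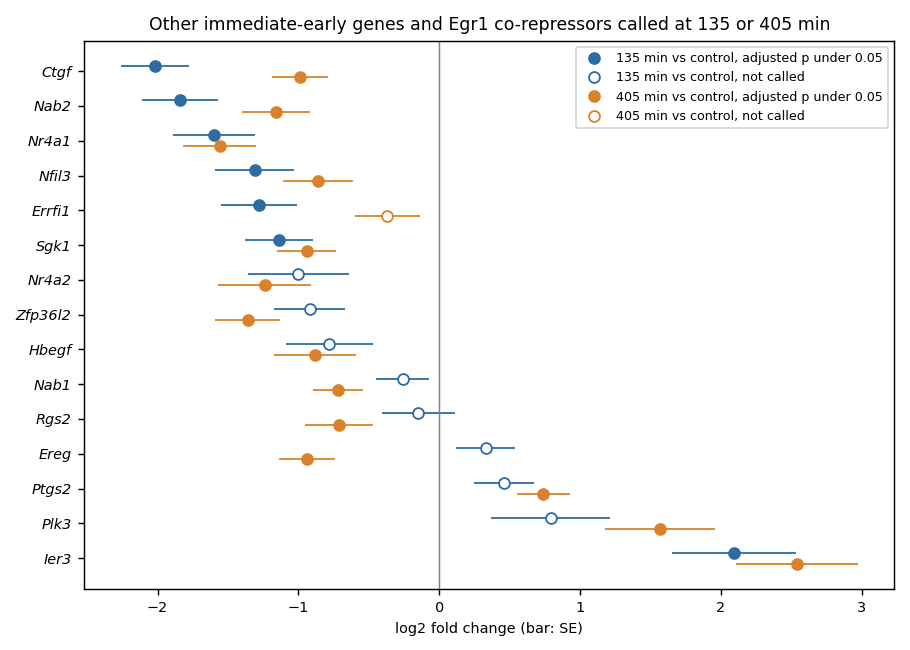
Log2 fold changes with SE bars at 135 min (blue) and 405 min (orange) for the other immediate-early genes and EGR co-repressors called at either time; filled points have an adjusted p under 0.05 in edgeR. Of the genes drawn, Ctgf (−2.02) and Nab2 (−1.84) are lowest at 135 min, and Ier3 (2.09 and 2.54) is highest at both times; the 2 comparisons share their controls.

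Of 22 known AP-1 or EGR target genes, 15 were tested. None was called at 135 min, where their median log2 fold change was 0.00, and 7 were lower and 2 higher at 405 min, beside 13.4% and 9.99% of all tested genes, with a median of −0.41. With the library set as a term 2 were lower and 1 higher at 135 min, beside 4.88% and 3.06%. At 405 min that fit had 7 lower and 1 higher, beside 6.87% and 6.17%. Without that term the higher ones at 405 min were Mmp9, a matrix metalloproteinase (3.18, SE 0.63, adjusted p = 0.00395, edgeR), and Plaur, the urokinase receptor (0.93, SE 0.31, adjusted p = 0.0455). Plaur was not called with the library set as a term (adjusted p = 0.229, edgeR) and was called in 4 of the 15 fits that leave out 1 library. The lower ones included Spp1, which encodes osteopontin (−1.68, SE 0.30, adjusted p = 0.0021, edgeR), Dcn, the proteoglycan decorin (−1.32, SE 0.31, adjusted p = 0.00963), Plau, the urokinase (−1.19, SE 0.26, adjusted p = 0.00749), and Hmga2, a chromatin protein (−1.04, SE 0.14, adjusted p = 0.000295). At the same time 4 of the 8 fibroblast markers were lower, Col3a1 (−0.87), Pdgfrb (−0.70), Vim (−0.61) and Col1a2 (−0.39), the last in 4 of the 15 fits that leave out 1 library, and their part in the results at 405 min was not tested.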

How the data were processed

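The authors mapped the reads to mm9, a mouse genome assembly, and summarised them per RefSeq gene with the DNAnexus service. The aligner is not given in the sources used here. The deposited read counts are expected counts, which need not be whole and were rounded. Only these and the deposited RPKM values were used, while a deposited Z score and a deposited ratio that rescales RPKM were not. CPM scales the expected counts to a common library total.

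The fit covered 10276 genes, those without a 0 in any sample, and was made in edgeR 4.0.16 (R 4.3.3) with TMM factors, 1 model over all 15 samples with a term for group, and Benjamini-Hochberg adjustment (threshold 0.05). The SE is the log2 fold change over the square root of F. Egr3 and Fosb were tested by exact permutation on log2(CPM + 0.5). On simulated counts for 135 min against control, run on 10228 genes, 94% of genes changed by 2 on the log2 scale and 37.4% of those changed by 1 were recovered. The simulated spread depended on a gene's mean level alone, with no library sets, so the rates need not hold for members that vary more.

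Groups and replicate numbers came from the sample titles. The labels do not say whether samples came from separate cultures, so the p-values measure only the spread between these samples, which may be technical. The 22 replicate pairs differed by 12 to 274 times the sampling noise (chi-square per degree of freedom), and each library was counted as 1 sample. The members and gene lists were chosen with earlier results of these data known. The text names all 10 members, at most 4 higher and 4 lower called genes per list and comparison with control, by size of change, and the 3 genes nearest by correlation to each of 5 members. One gene that this rule names is not reported here. Exonic GC came from the NCBIM37 genome (the mm9 assembly) with GENCODE vM1 exons, for 95.8% of tested genes.

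Egr1, Jun and Jund, like Fosl1, overlap an annotated gene on the other strand. The alternatives were DESeq2 1.42.0, RLE size factors, other filters, only the 2 groups compared, a replicate block, a GC offset, library set terms and subsets, and each library left out.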

Additional observations from a re-analysis of the deposited data

Results flagged for a closer look

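In 20 groups of 4 or 5 libraries screened for a value far from the others (gap over range, critical value 0.71 for 5 libraries), 2 stood out. Chance gives about 1 in 20 for normally distributed values. That rate need not hold for the CPM screened here, which included zeros for Egr3. Egr3 was at 0.747 CPM in control replicate 2, against 0.0704 CPM in the next control, with a gap of 0.906 of the range. Fosl1 was at 29.7 CPM in the same library, against 6.62 CPM in the next control, with a gap of 0.781 of the range. Control replicate 2 is the single control of library set 2, and whether the set accounts for either value was not tested.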

How the results depend on the processing

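Across 28 alternatives the log2 fold changes of Egr1 at 135 min (−2.91 to −2.19), Egr2 at 405 min (−2.12 to −1.43) and Ier2 at 405 min (−1.62 to −0.59) kept their direction, where a value could be had. They were called in 20 of 27, 21 of 28 and 25 of 28 alternatives. All 36 changes of list genes examined kept their direction. Depth limits Egr3, Fosb and Fos, which had few counts, and also Egr2, with 10 to 32 counts per library at 405 min.

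The members called changed as follows. At 135 min against control the 0 higher became 1 with DESeq2, with the library set as a term (also with the filterByExpr filter or without control replicate 3) and within set 1. The 1 lower became 2 with DESeq2 and with the set term (also without control replicate 3), and 0 in the fit of 2 groups and with the replicate block. At 405 min against control the 2 lower became 1 without a filter and with the block, 0 in the fit of 2 groups and within set 1, 5 with a GC offset, 4 with the block and GC offset, and 4 with the set term without control replicate 3. Between 45 and 135 min the 1 lower became 2 with DESeq2 and with the set term without control replicate 3, and 0 with the block, alone or with the GC offset. Between 135 and 405 min the 0 higher became 1 with DESeq2 or the GC offset and 3 in the fit of 2 groups, and the 0 lower became 1 with DESeq2, the fit of 2 groups, the set term in all 3 forms, and the GC offset with or without the block. Leaving out 1 library gave 0 to 1 for each of these counts, and 1 to 2 lower at 405 min against control. The causes were not tested. The GC offset moved the median of all genes by −0.14 at 405 min against control.

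Same-numbered samples did not deviate together on average (mean r −0.110 over 19 pairs, 4 above 0.1). Some of them belong to different library sets, such as control replicate 2 and 45 min replicate 2. The correlations therefore cannot decide whether the numbers mark pairs. The replicate block gave Egr1 −2.66 at 135 min (adjusted p = 0.217, edgeR).

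Values with no call in the fits concerned changed sign as follows, against control and for Fosl1 at 405 against 135 min. Between the treated times further values of Egr2, Fos, Fosl1, Jund and Ier2 changed sign and are not all listed. One was Jund at 405 against 135 min, at 0.14 and, with the set term, −0.15. With the GC offset Ier2 and Jund at 45 min were −0.21 and −0.49, Fosl1 at 135 min 0.01 and Junb at 405 min −0.54; with the block as well they were −0.28, −0.29, 0.12 and −0.30. With the set term Jund at 45 min was −0.02, Fosl1 at 135 min 0.64, Fos and Junb at 405 min 0.19 and −0.49, and Fosl1 at 405 against 135 min −0.25. With the filterByExpr filter as well, a combination chosen after seeing the data, they were −0.03, 0.64, 0.15, −0.49 and −0.26, and without control replicate 3, chosen likewise, −0.07, 0.37, 0.76, −0.58 and −0.13, with Fos at 45 min at 0.16. Within set 1 Jund at 45 min was −0.14, Fosl1 at 135 min 0.68, Junb at 405 min −0.36 and Fosl1 at 405 against 135 min −0.57. Within set 2 Egr2, Fos, Ier2 and Jun at 45 min were −0.26, 2.20, −0.48 and −0.05, and Fos and Junb at 405 min 2.13 and −0.56. With 1 library left out the ranges at 45 min were −0.11 to 0.96 for Egr1, −0.39 to 1.80 for Fosl1, −0.03 to 0.88 for Junb and −0.21 to 0.21 for Jund. For Fosl1 at 135 min it was −0.63 to 0.66, and at 405 min −1.07 to 0.04 for Fos, −0.15 to 0.13 for Jun and −0.10 to 0.47 for Junb.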
